A study of Mus musculus with 32 samples.

Results

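The tRNA gene locus tRNA-Phe-GAA-1-1 (Phe-1-1) and the loci tRNA-Ala-TGC-4-1 (Ala-4-1) and tRNA-Asp-GTC-1-7 (Asp-1-7) were followed through every library of an ATAC-seq study of mice that lack a phenylalanine tRNA gene. They are 3 of the 401 tRNA loci in the deposited tables. They were picked because their signal was low in 2 sets of knockout livers, those of the Phe-1-1 line and those labelled as the Phe-3-1 line, so their values there are a description and carry no test. ATAC-seq marks open chromatin with a transposase that cuts accessible DNA. The nuclei came from brain and liver of C57BL/6N mice, either wild type or homozygous for a deletion, tRNA-Phe-GAA-1-1-/- (Phe11), tRNA-Phe-GAA-2-1-/- (Phe21) or tRNA-Phe-GAA-3-1-/- (Phe31). The study's methods describe male mice matched for age and litter, and also the use of different litters. The sample titles give neither sex nor litter. The wild type gave 5 libraries from brain and 7 from liver, Phe11 gave 4 from each tissue, and Phe21 and Phe31 each gave 3 from each tissue. According to the study's methods each line goes back to founders edited with a guide that all tRNA-Phe genes share, followed by backcrossing to wild type, and the deletions are carried in the germline and not limited to a chosen cell type.

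As background, tRNA genes are short genes read by RNA polymerase III, whose promoter elements, the A box and the B box, lie inside the transcribed gene. Mammals carry many copies of most tRNA genes, and copies with the same mature sequence can differ in how open and active they are from tissue to tissue. The tRNA with anticodon GAA carries phenylalanine to the ribosome, that with TGC carries alanine and that with GTC carries aspartate. Accessibility reports on the gene's chromatin and is not a count of tRNA molecules.

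The edit in the Phe11 line removed 20 bases. The guide, with its PAM in capitals, and the stretch of the gene around it are shown because the deletion decides which bases of the Phe-1-1 locus were left to be counted. Both are written on the strand of the gene, and in the second line the deleted bases are in capitals.
guide: gcgttagactgaagatctaaAGG
gene, reference: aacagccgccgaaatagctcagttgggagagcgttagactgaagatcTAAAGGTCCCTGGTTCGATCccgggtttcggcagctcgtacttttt
gene, after the deletion: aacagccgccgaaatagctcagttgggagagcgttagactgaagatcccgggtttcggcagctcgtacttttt
The guide and the deletion were taken from the study's sequence table, and the guide was matched to the GRCm39 genome, a later build than that of the files, where it lies on the minus strand at chr5:125483146-125483168, in a window shown here from chr5:125483106-125483198 with the deleted bases at chr5:125483132-125483151. The deletion took the last 6 bases of the guide and PAM together and all 7 bases of the only match to GGTTCGA, the core of the B box, in this 93-base window, searched on both strands. After the deletion the window held no match. Among RefSeq promoter windows cut to the same length, 97 of 32851 (0.295%) held the motif. The guide matched 7 sites on the 5 chromosomes searched, and the windows of 6 of them held the motif. Around the guide, the run of bases identical to the chromosome 5 site was between 56 and 75 bases long at the other 6 sites, and beyond it the sequences differ. A fragment that lies wholly within such a run matches several genes equally well, and the authors' filter on mapping quality removes such fragments. The tables give no sequence for Ala-4-1 and Asp-1-7.

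On GRCm38.p6, the build of the files, RefSeq places the tRNA-Phe gene of chromosome 5 (n-TFgaa7) at chr5:125406055-125406127. It is the single tRNA-Phe gene of that chromosome and stands in a group of 5 tRNA genes that spans 5294 bases. A tRNA-Asp GTC gene (n-TDgtc15) lies 377 bases before it at chr5:125405607-125405678, and a tRNA-Ala TGC gene (n-TAtgc10) lies 1734 bases before it at chr5:125404250-125404321. On the other side a second tRNA-Asp GTC gene (n-TDgtc14) lies 2889 bases away at chr5:125409016-125409087, and a second tRNA-Ala TGC gene (n-TAtgc5) lies 3345 bases away at chr5:125409472-125409543. The nearer end of the protein-coding gene Dhx37, which encodes an RNA helicase, is 7620 bases away. The files name their loci differently from RefSeq, so which of these 4 genes, if any, is Ala-4-1 or Asp-1-7 is not stated here.

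Depth over the tRNA loci ran from 20315 to 35565 reads in the 15 libraries from brain and from 4719 to 23754 in the 17 from liver. The deleted locus checks the labels. In Phe31 brain the count at tRNA-Phe-GAA-3-1 was 4.82% of wild type, and at tRNA-Phe-GAA-2-1 it was 7.02% in Phe21 brain and 6.83% in Phe21 liver, the last from 7 reads against 1. In the livers labelled Phe31 it was 75.4% of wild type, with values from 9.01 to 10.6 against 9.91 to 15.6, so these are called the libraries labelled Phe31 below. The table columns of these libraries and of their wild-type partners carry no sample number, so they are named a, b and c. The central nervous system locus tRNA-Arg-TCT-4-1 took between 0.669% and 0.981% of reads in brain and between 0.00538% and 0.143% in liver. Of 5 liver genes with a start window all had a peak there in each of the 3 liver comparisons and none in the 3 brain comparisons. Of 4 brain genes, Syt1, Neurod2 and Slc17a7 had one in all 3 brain comparisons and Gfap, an astrocyte gene, in none, while Syt1 or Slc17a7 had one in all liver comparisons. Wild-type liver replicates 1 and 22 differed by less than the sampling noise and were counted as 1 sample in the means of the 3 loci.

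In wild-type brain Phe-1-1 was well represented. It took 0.405% ± 0.0361 of reads (SD, n = 5), with values from 0.367% to 0.464%. In wild-type liver it took 0.170% ± 0.0710 (SD, n = 6), with values from 0.0858% to 0.267%, so that every brain lay above every liver. The difference was 0.235 percentage points. The wild-type livers are also one side of the comparisons that chose the loci, so the tissues are described here with no test. Among the 239 loci compared, 26.4% also had all brains above all livers. In batch 1 alone the mean shares were 0.388% in 3 brains and 0.199% in 2 livers.

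Ala-4-1 and Asp-1-7 overlapped between the tissues. Ala-4-1 took 0.318% ± 0.0488 of reads in wild-type brain (SD, n = 5) and 0.257% ± 0.0890 in wild-type liver (SD, n = 6). Asp-1-7 took 0.542% ± 0.0736 and 0.457% ± 0.212. The order of the levels was therefore Asp-1-7 above Phe-1-1 above Ala-4-1 in the brain means and Asp-1-7 above Ala-4-1 above Phe-1-1 in the liver means. In brain Phe-1-1 and Ala-4-1 overlapped, since Ala-4-1 reached 0.404% in replicate 3, and Asp-1-7 at 0.428% in that library lay within the range of Phe-1-1. All loci were counted over the gene with 50 bases on each side. The tables give no length, and the RefSeq genes for these 3 tRNAs in the region are 72 or 73 bases long.

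The wild-type livers formed 2 sets at these loci. Livers 1, 3, 22 and 24 gave Phe-1-1 between 0.183% and 0.267% of reads, and livers a, b and c gave 0.164%, 0.0934% and 0.0858%. For Ala-4-1 the first set lay between 0.287% and 0.388%, and a, b and c lay at 0.164%, 0.198% and 0.182%. For Asp-1-7 the first set lay between 0.626% and 0.689%, and a, b and c lay at 0.252%, 0.338% and 0.214%. The means of a, b and c were 50.5%, 54.5% and 41.5% of those of the first set, with 1 and 22 as 1 sample. All 3 loci were lower in a, b and c without overlap, as were 18.7% of the 193 loci compared, and 19.7% were higher without overlap. The sets also differ in batch, and the 2 cannot be told apart. Without livers a, b and c, and with 1 and 22 as 1 sample, the brain-to-liver difference stayed positive for Phe-1-1, at 0.179 percentage points. It turned negative for Ala-4-1, at -0.0154, and for Asp-1-7, at -0.105.

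**Figure D1:**
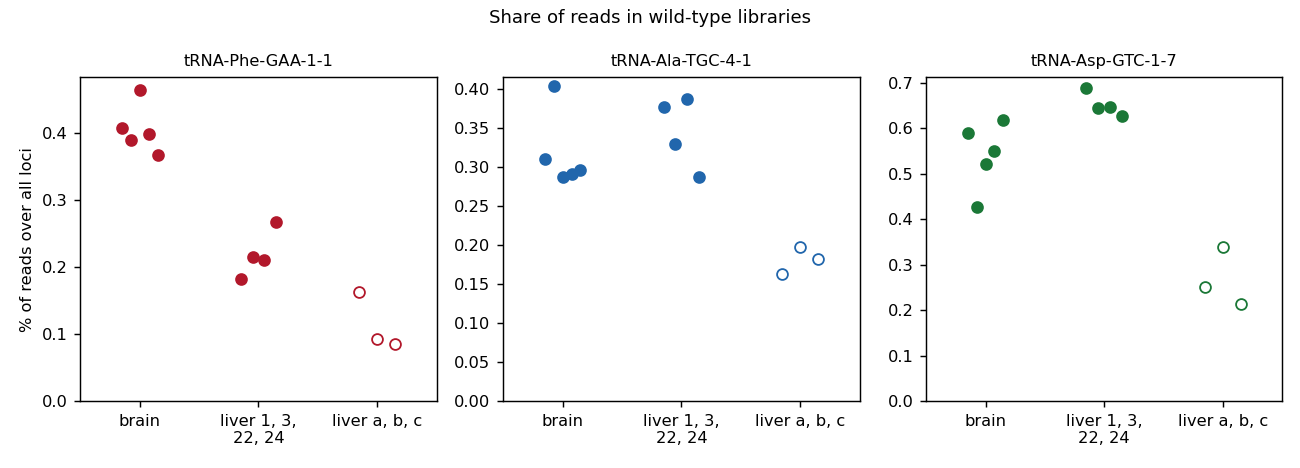
Percent of a library's reads over 401 tRNA loci that fell on each of the 3 loci, for the wild-type brains and the numbered (filled) and unnumbered (open) wild-type livers. Each point is a library. Phe-1-1 lay above 0.36% in every brain and below 0.27% in every liver, and all 3 loci were lowest in livers a, b and c.

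In the brain of Phe11 mice the deleted locus lost most of its signal while Ala-4-1 kept its own. At Phe-1-1 the normalised read counts, read counts divided by a size factor for depth, were 105.8, 101.0, 121.4 and 103.1 in wild-type replicates 1, 3, 16 and 18. They were 39.9, 40.6, 38.2 and 28.1 in Phe11 replicates 5, 6, 13 and 14. Every knockout lay below every wild type, and 34.0% of the wild-type mean was left (107.8 ± 9.29 against 36.7 ± 5.83, SD, n = 4 each). The limma log2 change of -1.54 ± 0.12 (SE) had an adjusted p of 4.61e-11, and an exact two-sided permutation test gave 0.0286, the smallest p possible. The remaining share was 38.9% in batch 1 and 29.5% in batch 2. From 171 recovered reads against 378, each total scaled by the size factors of its libraries, it was 33.9% with a 95% counting interval from 28.1% to 40.7%. Of the 263 loci tested 28.1% were called, 13.3% as lower, 13.7% had every knockout below every wild type, and Phe-1-1 was the third from the lowest. It was the lowest of the 83 loci with a mean count of 50 to 100. By log2 change the 2 loci below it were tRNA-Cys-GCA-4-10 and tRNA-Cys-GCA-4-12, at 21.01% and 30.3% of wild type. The next above it by log2 change, tRNA-Cys-GCA-4-13, was at 33.1%, below Phe-1-1 on the percent scale. In whole tissue, fewer nuclei with an open locus and less opening in each nucleus cannot be told apart.

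At Ala-4-1 the counts were 80.7, 104.8, 75.2 and 75.3 in wild-type brain and 84.6, 92.3, 72.2 and 85.1 in Phe11 brain, in the same order of replicates. The groups overlapped and the means were 84.0 ± 14.1 and 83.6 ± 8.36 (SD, n = 4 each), or 99.5% of wild type. The log2 change of 0.00 ± 0.11 (SE) had an adjusted p of 0.996 by limma. By reads the 95% counting interval ran from 85.1% to 116.1%, and the 95.4% of batch 1 and 104.5% of batch 2 fell to either side of wild type.

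At Asp-1-7 the counts were 153.8, 111.2, 136.5 and 142.5 in wild-type brain and 108.9, 126.5, 106.1 and 110.6 in Phe11 brain. Wild-type replicate 3 lay among the knockouts and the other wild types lay above all of them. The means were 136.0 ± 18.01 and 113.0 ± 9.15 (SD, n = 4 each), or 83.1% of wild type, 88.8% in batch 1 and 77.7% in batch 2. The log2 change of -0.26 ± 0.095 (SE) had an adjusted p of 0.0414 by limma and an exact permutation p of 0.0571. The adjusted p was 0.0280 with edgeR and, by limma, 0.0236 in batch 2 alone. It was 0.0581 with TMM scaling, 0.127 with DESeq2 and 0.586 in batch 1 alone. When left out singly, 6 of the 8 libraries each ended the call. They were replicates 1, 16 and 18 of the wild type, with log2 changes from -0.25 to -0.19 without them, and 5, 13 and 14 of Phe11, with changes from -0.25 to -0.23. Of the 96 tested loci with a mean count of at least 100, to which Asp-1-7 belongs, 74 had a log2 change below 0 and the median was -0.11, while the 84 loci with a mean of 10 to 50 had a median of 0.35.

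In Phe11 liver all 3 loci were low together. At Phe-1-1 the normalised read counts were 18.6, 21.9, 20.9 and 26.7 in wild-type replicates 1, 3, 22 and 24 and 3.07, 3.12, 5.31 and 1.24 in Phe11 replicates 4, 6, 20 and 21. At Ala-4-1 they were 38.3, 33.5, 38.6 and 28.8 in wild type and 6.13, 9.36, 5.31 and 5.77 in Phe11. At Asp-1-7 they were 70.1, 65.7, 64.4 and 62.7 in wild type and 18.4, 13.5, 12.4 and 11.5 in Phe11. No knockout value came near a wild-type value at any of the loci.

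With wild-type replicates 1 and 22 as 1 sample, the Phe-1-1 means were 22.8 ± 3.57 (SD, n = 3) and 3.18 ± 1.67 (SD, n = 4), which left 13.97%. Ala-4-1 went from 33.6 ± 4.85 to 6.64 ± 1.84, which left 19.8%, and Asp-1-7 from 65.2 ± 2.29 to 13.96 ± 3.06, which left 21.4% (SD, n = 3 and 4). The log2 changes were -2.59, -2.20 and -2.17, and -2.54, -2.25 and -2.18 with replicates 1 and 22 separate. By the latter these were the 3 lowest of the 207 loci tested, a place that the choice of the loci fixes and from which nothing is read. Phe-1-1 and Ala-4-1 passed the filter there through their wild-type values. Of the loci tested 6.76% were called lower and 7.73% had every knockout below every wild type. Next in order came tRNA-Asp-GTC-1-6 at -1.70 and then tRNA-Gly-GCC-4-1 at -0.82 on the log2 scale. Both batches showed the low values, with 15.3% and 13.7% left at Phe-1-1, 21.6% and 16.4% at Ala-4-1 and 23.5% and 18.8% at Asp-1-7 in batches 1 and 2.

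The liver values rest on few reads. There were 73 reads at Phe-1-1 in 4 wild-type libraries and 15 in 4 knockouts, 113 and 35 at Ala-4-1, and 216 and 73 at Asp-1-7. After scaling by the size factors, these reads left 12.3% at Phe-1-1 (95% counting interval 6.54% to 21.6%), 18.5% at Ala-4-1 (12.3% to 27.3%) and 20.2% at Asp-1-7 (15.3% to 26.5%). The 3 intervals overlap. Set beside brain, by the same measure Phe11 left 33.9% of Phe-1-1 there, 99.3% of Ala-4-1 and 82.3% of Asp-1-7. The difference between tissues was not tested because the liver values chose the loci.

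**Figure D2:**
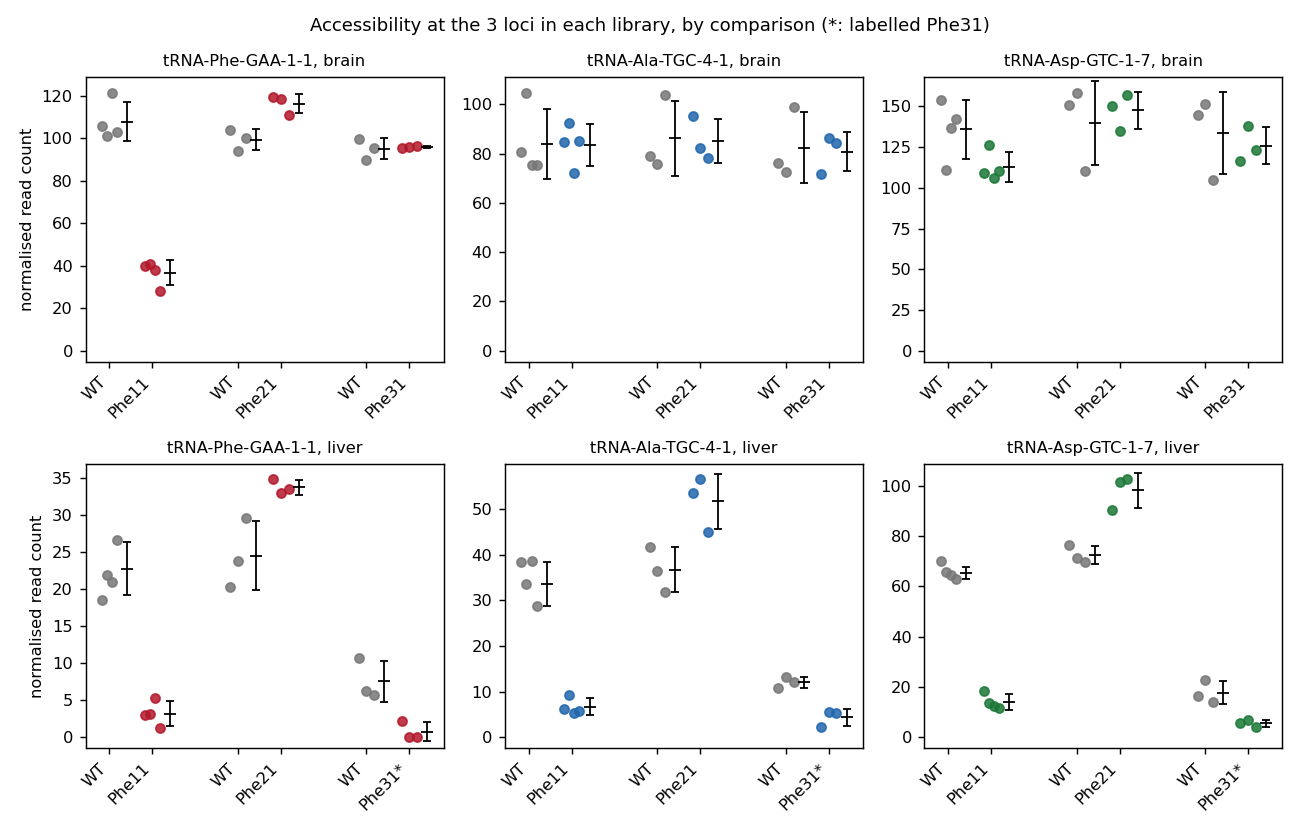
Normalised read count of each of the 3 loci in every library (points), by comparison, with wild type in grey and the knockout in colour, brain above and liver below. Black marks are means ± SD, with wild-type livers 1 and 22 as 1 sample in the Phe11 liver comparison, and normalisation was made separately in each comparison. In Phe11 liver and in the libraries labelled Phe31, which chose the loci, all knockouts lay below all wild types at all 3 loci. In Phe21 liver all lay above, and in Phe11 brain Phe-1-1 alone had no overlap.

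The livers labelled Phe31 gave low values at the same 3 loci, in a table where wild type was low as well. At Phe-1-1 the normalised counts were 10.7, 6.25 and 5.66 in wild-type livers a, b and c and 2.25, 0 and 0 in livers a, b and c labelled Phe31. The 2 zeros stand for 0 of 4719 and 0 of 4925 reads, which allow a share of up to 0.0636% and 0.0609%. At Ala-4-1 the counts were 10.7, 13.3 and 12.0 in wild type and 2.25, 5.50 and 5.29 in the labelled knockouts. At Asp-1-7 they were 16.5, 22.7 and 14.2 and then 5.63, 6.87 and 3.97. All 3 loci had the labelled knockouts below wild type with no overlap. So did 16.9% of the 178 loci tested, which include Asp-1-7 but not the other two, and 8.73% of all 401 loci, which include loci without reads.

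By means, the libraries labelled Phe31 had 9.95% of wild type at Phe-1-1, 36.2% at Ala-4-1 and 30.9% at Asp-1-7 (n = 3 each). The reads behind them were 29 and 2 at Phe-1-1, 47 and 10 at Ala-4-1 and 69 and 13 at Asp-1-7. The 95% counting intervals of the scaled reads ran from 1.31% to 44.9%, from 15.8% to 70.3% and from 15.7% to 56.6%. Phe-1-1 and Ala-4-1 fell under the filter on low counts, which Asp-1-7 alone of the 3 passed, through its wild-type values. Its log2 change of -1.53 was the lowest of the loci tested, ahead of tRNA-Arg-TCG-2-1 at -1.11, and since the choice of the loci used these values nothing is read from that place. Depth was low on the knockout side, between 4719 and 5576 reads against 7943 to 9329 in wild type, and the part of depth in these values was not tested.

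In Phe21 liver, where a different tRNA-Phe gene is deleted, all 3 loci had higher values than in wild type in every library, as had many other loci. At Phe-1-1 the counts were 20.3, 23.8 and 29.6 in wild-type replicates 1, 3 and 24 and 34.9, 33.0 and 33.5 in Phe21 replicates 7, 8 and 9. At Ala-4-1 they were 41.8, 36.4 and 31.9 in wild type and 53.6, 56.6 and 45.0 in Phe21. At Asp-1-7 they were 76.4, 71.4 and 69.5 in wild type and 90.3, 101.3 and 102.6 in Phe21. Every knockout lay above every wild type at each locus, as it did at 20.4% of the 201 loci tested. These wild types also served the Phe11 liver comparison that chose the loci, so the values are described with no test.

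Asp-1-7 was at 135% of wild type (72.4 ± 3.53 and 98.1 ± 6.78, SD, n = 3 each), a log2 change of 0.43. Ala-4-1 was at 141% (36.7 ± 4.93 and 51.7 ± 5.99, SD, n = 3 each), a log2 change of 0.49. Phe-1-1 was at 138% (24.6 ± 4.72 and 33.8 ± 0.991, SD, n = 3 each), a log2 change of 0.46. The median log2 change of all loci was 0.10 here. In batch 1 alone, without wild-type replicate 24, the changes were 0.40, 0.39 and 0.60. From 377 and 176 reads at Asp-1-7, 204 and 89 at Ala-4-1 and 132 and 60 at Phe-1-1, in Phe21 and wild type and scaled by the size factors, the 95% counting intervals ran from 112% to 161%, from 111% to 186% and from 101% to 190%. The Phe21 livers were also deeper, with 11278 to 18575 reads against 7895 to 9739, and the part of depth was not tested.

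Phe21 and Phe31 brain showed no called change at the 3 loci. In Phe21 brain Phe-1-1 was at 117% of wild type, with counts of 119.2, 118.6 and 111.1 in the knockouts against 103.7, 94.1 and 100.1 in wild-type replicates 1, 2 and 3. The knockouts lay above all wild types, as at 13.8% of the 253 loci tested, and the log2 change of 0.23 ± 0.095 had an adjusted p of 0.238 by limma (exact permutation p = 0.1, the smallest possible). Ala-4-1 was at 98.9% and Asp-1-7 at 106%, with counts of 78.2 to 95.4 against 75.9 to 103.9 and of 134.9 to 157.3 against 110.2 to 158.5, and both overlapped wild type. By limma 0% of loci were called in Phe21 brain, though 43 had an unadjusted p under 0.05, and edgeR and DESeq2 called 0.

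In Phe31 brain Phe-1-1 counts were 95.5, 95.9 and 96.5 against 99.7, 89.9 and 95.4 in wild type, or 101% of wild type. Ala-4-1 was at 98.0% and Asp-1-7 at 94.1%. All 3 overlapped wild type, with adjusted p of 0.986 by limma, in a comparison that called 0.775% of 258 loci. The 95% counting interval of the ratio ran from 85.7% to 119.6% for Phe-1-1, from 83.0% to 119.2% for Ala-4-1 and from 80.3% to 106.7% for Asp-1-7. These intervals, here and elsewhere, cover counting error only. The Phe21 and Phe31 brain comparisons share their wild-type libraries.

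**Figure D3:**
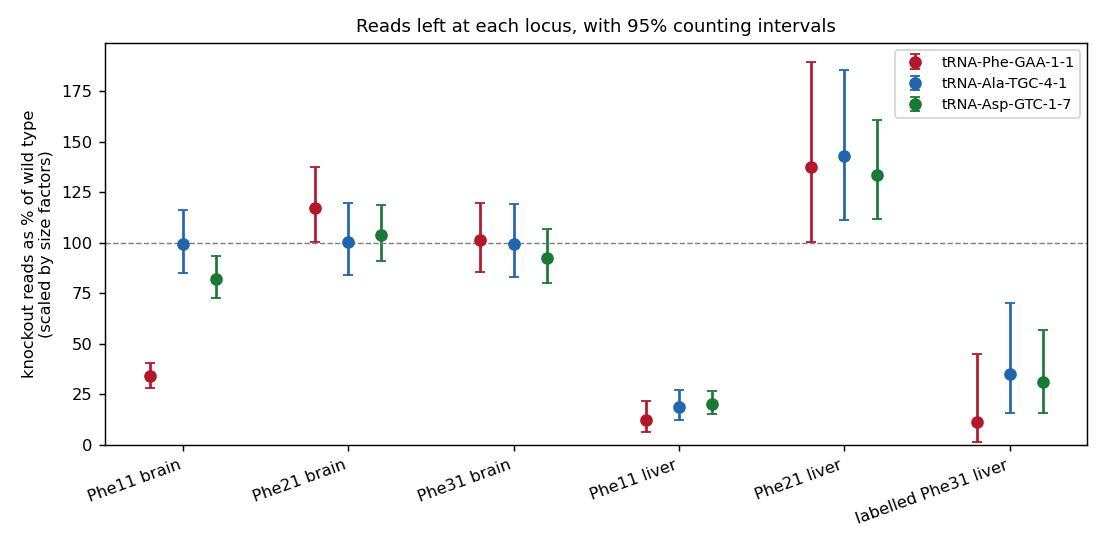
Knockout reads as a percentage of wild-type reads at each locus after scaling by the size factors, for the 6 comparisons. Bars are 95% counting intervals, which cover counting error only, and the dashed line marks 100%. The intervals of Ala-4-1 and Asp-1-7 lay below 30% in Phe11 liver, whose values helped choose the loci. In Phe11 brain that of Ala-4-1 held 100% and that of Asp-1-7 ran from 72.5% to 93.3%.

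Ratios of reads between the loci of a library need no size factor. In wild-type brain there were 0.802 ± 0.113 reads at Phe-1-1 for each read at Asp-1-7 in the 4 libraries compared with Phe11, and 0.325 ± 0.0516 in Phe11 brain (SD, n = 4 each, exact two-sided permutation p = 0.0286, the smallest possible, and 0.171 after adjustment over 6 ratio tests). The ratio of Ala-4-1 to Asp-1-7 was 0.637 ± 0.204 and 0.739 ± 0.0445 (exact permutation p = 0.2). In liver the ratios are given with no test. The ratio of Phe-1-1 to Asp-1-7 was 0.352 ± 0.0673 in wild-type livers 1, 3, 22 and 24, with 1 and 22 as 1 sample (SD, n = 3), and 0.233 ± 0.140 in Phe11 livers (SD, n = 4). Of the 4 Phe11 livers 3 lay below every wild type, at 0.167, 0.231 and 0.107 against 0.266 or more, and replicate 20 lay above all of them at 0.429, from 6 reads against 14. The ratio of Ala-4-1 to Asp-1-7 was 0.514 ± 0.0573 in wild type (SD, n = 3) and 0.489 ± 0.152 in Phe11 (SD, n = 4), with values from 0.459 to 0.6 and from 0.333 to 0.692. In Phe21 liver the ratio of Phe-1-1 to Asp-1-7 was 0.346 ± 0.0350 against 0.342 ± 0.0806 in its wild types (SD, n = 3 each), and the ratio of Ala-4-1 to Asp-1-7 was 0.530 ± 0.0810 against 0.505 ± 0.0441. The other 4 tests, in Phe21 and Phe31 brain, had exact permutation p from 0.6 to 1. In the livers labelled Phe31 the ratios come from 13 or fewer reads per locus summed over 3 libraries and are not given.

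Loci of a library were also ranked by reads, from 1 for the most to 401. Asp-1-7 stood between places 35 and 43 in wild-type livers 1, 3, 22 and 24 and between 172 and 201 in Phe11 livers. Phe-1-1 stood between places 74 and 101 in wild-type brain and between 203 and 226 in Phe11 brain. Ala-4-1 stood between 90 and 139 in wild-type brain and between 112 and 137 in Phe11 brain.

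The other copies of the same 3 families give the setting for these values. The family tRNA-Phe-GAA has 7 loci in the tables, tRNA-Ala-TGC has 11 and tRNA-Asp-GTC has 16. In Phe11 brain none of the 5 other tRNA-Phe loci tested was called. Of 4 other tRNA-Ala-TGC loci 2 were called lower, tRNA-Ala-TGC-6-1 at 66.8% of wild type and tRNA-Ala-TGC-2-1 at 79.4%. Of 9 other tRNA-Asp-GTC loci 2 were called lower, tRNA-Asp-GTC-1-6 at 78.0% and tRNA-Asp-GTC-1-10 at 85.2%. Of all loci tested 28.1% were called and 13.3% were called lower, both by limma. Of the 263 loci limma called 74, edgeR 66 and DESeq2 34, of which 35, 29 and 14 were lower. The median log2 changes of the 3 lists were -0.05, -0.23 and -0.07, beside -0.01 over all loci tested.

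In Phe11 liver 1 of 5 other tRNA-Phe loci was called lower, tRNA-Phe-GAA-1-2 at 63.9% of wild type, and none of 2 other tRNA-Ala-TGC loci was called. These calls and percentages count wild-type replicates 1 and 22 separately. Over all 207 loci limma called 14 lower and 11 higher, edgeR 15 and 8, and DESeq2 10 and 1. Of 7 other tRNA-Asp-GTC loci 1 was called lower, tRNA-Asp-GTC-1-6, and 1 higher, tRNA-Asp-GTC-1-5, where 6.76% of all loci were called lower and 5.31% higher. At tRNA-Asp-GTC-1-6 the counts went from 14.2 to 17.7 in wild type down to 1.24 to 8.18 in Phe11, with a mean of 4.76 ± 2.85 against 15.7 ± 1.45 (SD, n = 4 each, replicates 1 and 22 separate) from 51 and 21 reads. It passed the filter there through its wild-type values, so nothing is read from its call. In Phe11 brain its groups overlapped, with 44.8 to 64.4 against 60.2 to 86.9. In Phe21 liver it was at 116% of wild type and in the livers labelled Phe31 at 106%, the latter from 16 and 10 reads and not tested. At tRNA-Asp-GTC-1-5 the mean was 185% of wild type. The median log2 changes of the 3 lists were 0.02, 0.28 and 0.11, beside 0.06 over all loci.

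In Phe21 liver 3 of 7 other tRNA-Asp-GTC loci and 1 of 2 other tRNA-Ala-TGC loci were called higher and none lower, where 8.46% of all loci were called higher. They were tRNA-Ala-TGC-3-1 at 191% of wild type, tRNA-Asp-GTC-1-5 at 200%, tRNA-Asp-GTC-1-13 at 143% and tRNA-Asp-GTC-2-1 at 141%, with adjusted p of 3.36e-08, 9.41e-05, 0.00623 and 0.0404 by limma. Of 5 other tRNA-Phe loci, tRNA-Phe-GAA-3-1 was called lower, at 60.8%, where 4.98% of all loci were. Over all 201 loci limma called 17 higher and 10 lower. The balance turned with the other tools, 11 higher and 23 lower by edgeR and 6 and 11 by DESeq2. The median log2 changes of the other tRNA-Phe, tRNA-Ala-TGC and tRNA-Asp-GTC loci were -0.04, 0.76 and 0.33, beside 0.10 over all loci. In the livers labelled Phe31, where limma called 10.7% of loci, none of the 5, 1 and 6 other loci tested was called. There limma called 19 of the 178 loci, edgeR 14 and DESeq2 1. In Phe31 brain the deleted tRNA-Phe-GAA-3-1 was the only locus of the 3 families called by limma, and in Phe21 brain none was.

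**Figure D4:**
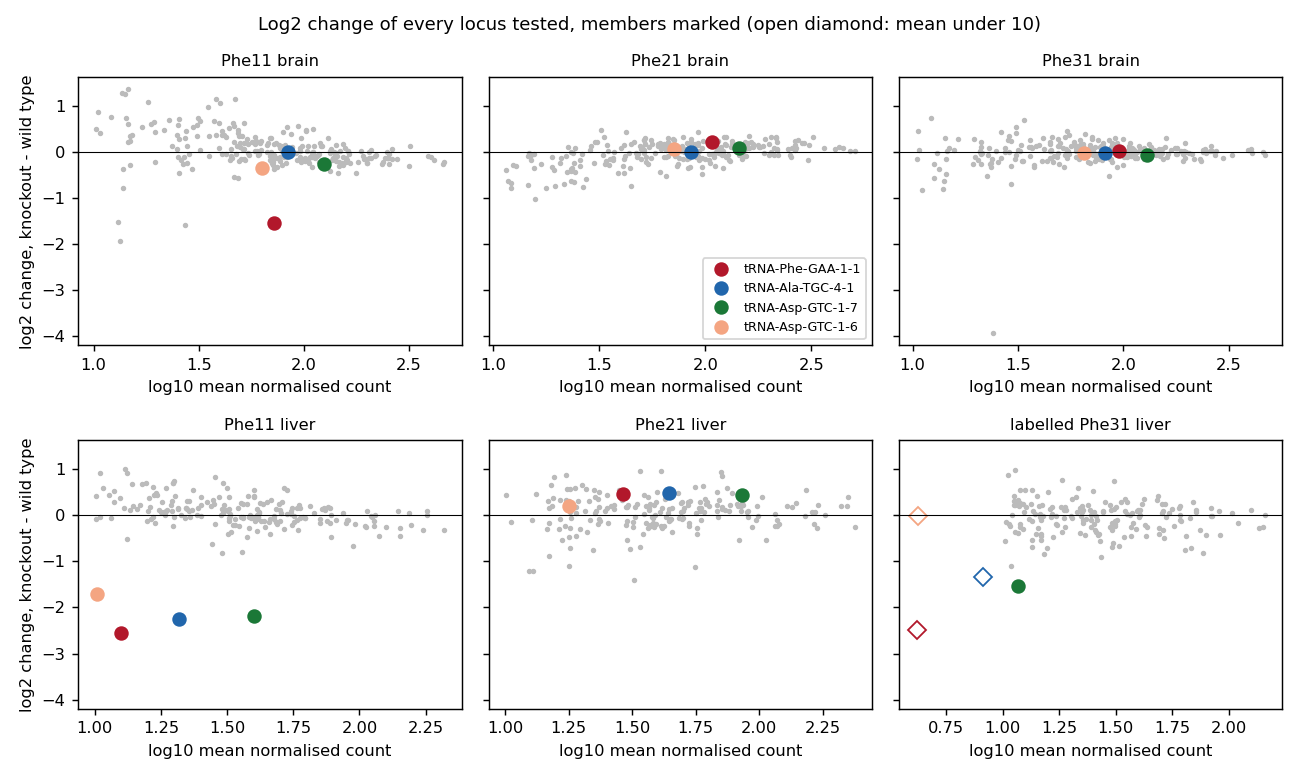
Log2 change of knockout against wild type for each locus tested (grey) over the log10 of its mean normalised read count, in the 6 comparisons, with the 3 loci and tRNA-Asp-GTC-1-6 in colour. Open diamonds mark loci with a mean under 10, which were not tested. In Phe11 liver these 4 loci were the 4 lowest, at -1.70 or below. The choice of the 3 loci fixes their place, tRNA-Asp-GTC-1-6 was named after its values were seen, and nothing is read from this order. In Phe11 brain Phe-1-1 alone of the 4 lay below -1 and was the lowest of the 83 loci with a mean of 50 to 100.

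Over the 17 liver libraries, the loci whose share of reads followed that of Phe-1-1 most closely, out of 201 compared, were Asp-1-7 (Pearson r = 0.92, Spearman rho = 0.93) and Ala-4-1 (r = 0.84, rho = 0.85). After them came tRNA-Met-CAT-1-1 (r = 0.80), tRNA-Cys-GCA-3-3 (r = 0.80) and tRNA-Trp-CCA-3-1 (r = 0.75). Over the 15 brain libraries, out of 260 loci, they were tRNA-Arg-ACG-3-1 (r = 0.86), tRNA-iMet-CAT-1-1 (r = 0.85), tRNA-Tyr-GTA-3-1 (r = 0.85), tRNA-Ser-GCT-2-1 (r = 0.80) and tRNA-Thr-CGT-1-1 (r = 0.80). There Asp-1-7 came in place 22 (r = 0.64) and Ala-4-1 in place 134 (r = -0.11). These are descriptions, since the liver pattern chose the loci and libraries of a genotype, batch and depth share their values.

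The peak files give a view of the region that does not depend on tRNA annotation. The authors called open stretches in each group and joined those of knockout and wild type into the consensus peaks of a comparison. Which group a consensus peak came from is not given. In both the Phe21 and the Phe31 brain comparison a peak of about 2 kb (chr5:125404909-125406878 and chr5:125404909-125406877) lay over the tRNA-Phe gene and the tRNA-Asp gene next to it, and the same was true of Phe11 brain (chr5:125404648-125406903), Phe11 liver (chr5:125404812-125406870) and Phe21 liver (chr5:125404847-125406870). In these 5 comparisons all 5 tRNA genes of the group lay under a peak. In the comparison of the livers labelled Phe31 only n-TDgtc14 and n-TAtgc5 did. There a peak of 468 bases ended 627 bases before the start coordinate of the tRNA-Phe gene and a peak of 472 bases began 285 bases after it.

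Signal in a peak is given by the authors as a group mean, the log2 of normalised reads, only for peaks in their lists of differing peaks, and it has no replicates here. In Phe11 liver 5 of the 7 peaks in the 20 kb around the gene were listed, where 4.14% of all 125852 consensus peaks were. The authors' mean was 7.49 in wild type and 5.69 in Phe11 over the peak with the tRNA-Phe gene. At the peak over n-TDgtc14 (chr5:125408764-125409340) it was 6.36 and 4.62, and at that over n-TAtgc5 (chr5:125409448-125409883) it was 5.56 and 3.53. At the peak over n-TAtgc10 (chr5:125403561-125404352) it was 5.70 and 5.02, and at a peak over no gene (chr5:125408071-125408460) it was 4.15 and 2.95. The peaks with lower means thus covered all 5 tRNA genes and a stretch with none. The peak with the tRNA-Phe gene also covers n-TDgtc15, and its mean does not separate these genes.

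In Phe11 brain 1 of 4 peaks of the region was listed, that over the tRNA-Phe gene and n-TDgtc15, where 16.3% of all peaks were. The authors' mean there was 8.65 in wild type and 8.10 in Phe11. In Phe21 liver 1 of 6 was listed (14.4% of all peaks), that over n-TDgtc14, and its group means are not given because the knockout column of that table is headed with the name of another group. In the livers labelled Phe31 3 of 7 were listed (18.9% of all peaks). Their authors' means were 4.59 in wild type and 3.41 in the labelled knockouts over n-TDgtc14, 5.26 and 3.53 before the tRNA-Phe gene (chr5:125404961-125405428), and 6.73 and 5.72 at a peak 6.02 kb beyond its start. In Phe21 brain (0.711% of all peaks) and Phe31 brain (0.000465%) no peak of the region was listed. Because the loci were chosen from Phe11 and labelled Phe31 liver, the peaks of these livers are not independent evidence of the direction.

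**Figure D5:**
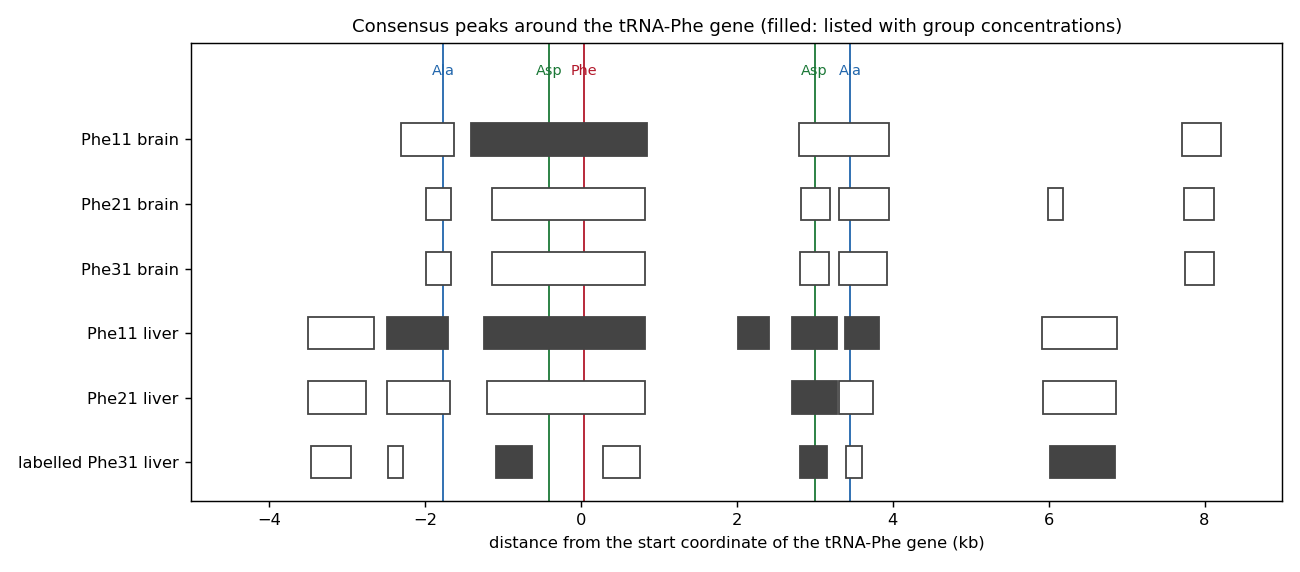
Consensus peaks within the region of the chromosome 5 tRNA-Phe gene in the 6 comparisons, as boxes over the distance in kb from the gene's start coordinate. Filled boxes are peaks for which the authors list group means, open boxes are the others, and coloured lines mark the 5 tRNA genes. Each set of peaks joins knockout and wild type. The peak over the tRNA-Phe gene is present in 5 comparisons, and in that of the livers labelled Phe31 the gene lies between 2 peaks.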

How the data were processed

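ATAC-seq libraries were made by the study from nuclei of fresh brain and liver, and 32 of them were used here. Per the labels and the study's methods, reads were trimmed with Trim Galore 0.6.4 and cutadapt 1.18, aligned to GRCm38.p6 with Bowtie2 2.4.1 keeping several alignments per read, and filtered for duplicates, mapping quality, blacklisted regions and the mitochondrial genome. The authors kept short, nucleosome-free fragments and counted them over high-confidence tRNA genes with 50 bases on each side using featureCounts 2.0.0. The deposited signal values are these counts divided by 1 size factor per library and table, computed by the authors with DESeq2. Peaks were called by the authors for each group with Genrich 0.6 and joined with DiffBind 3.0.8, and the deposited log2 concentrations are the authors' group means. The fold changes and p-values in the authors' peak tables, and the score column of the consensus lists, were not used. In the Phe21 tables and the Phe31 brain table the knockout concentration is headed with another group's name, so their concentrations were not used either.

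From the signal values whole reads were recovered (100% of 16040 values within 0.001 reads), which gave the depth of each library. They were used for shares, ranks, ratios and 95% counting intervals, the exact binomial interval of the knockout share of reads turned into a ratio with the size factors. PCR reads are not independent molecules, so intervals and limits cover counting error only, and 0 reads allow up to 3. Each comparison was fitted over all its loci with limma 3.58.1 (R 4.3.3, trend on the mean) on log2(signal + 1), with loci of mean signal at least 10, Benjamini-Hochberg adjustment at 0.05 and batch as a term for Phe11, so fold changes of low loci are understated. Exact two-sided permutation tests (SciPy 1.17.1) were run on single values. The difference between wild-type tissues and the changes of the 3 loci in Phe21 liver were to be tested too, but are given with no test because their wild-type livers belong to the comparisons that chose the loci. Changes of scale, filter, pseudocount and test, with edgeR 4.0.16 and DESeq2 1.42.0 on the recovered reads, and each library left out in turn, were alternatives. The fits were tested on simulated data first.

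The 3 loci, the families and the other lists were chosen with earlier results of these data known. Loci named beside the 3 are, by rule, up to 3 called loci of each family with the largest change, tRNA genes within 10 kb of the tRNA-Phe gene, and in each tissue the 5 loci with the highest Pearson r with Phe-1-1 on the log2 share of reads. The lowest loci of a comparison, and tRNA-Asp-GTC-1-6 in all comparisons, were named after their values were seen. Batch is a number in the labels, which do not say what it marks. The labels do not say which libraries of the 2 tissues came from the same animal. Permutation p-values rest on these libraries alone. Those of limma rest on their spread after it is moderated with a trend over all loci tested, so their size depends on that model. The 3 brain comparisons share wild-type libraries, as do those of Phe11 and Phe21 liver, while wild-type livers a, b and c stand in the labelled Phe31 comparison alone. 6 libraries stand in several tables, and all 8 repeat columns held the same reads.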

Additional observations from a re-analysis of the deposited data

Results flagged for a closer look

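In wild-type brain replicate 3 Ala-4-1 took 0.404% of reads, while the other 4 wild-type brains lay between 0.287% and 0.310%. The gap to the nearest library was 0.804 of the range of the group, above the 95% critical value for 5 samples. Of the 18 groups of values examined this was the only one with such a gap, and chance gives one in about 5% of groups. In the same library Asp-1-7 was at 0.428%, the lowest of the 5 wild-type brains, and the depth of 20315 reads was the lowest of all brain libraries.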

How the results depend on the processing

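Of 351 values from 21 results under an alternative, 305 kept their direction and side of the threshold or moved by less than the replicate spread, 12 lost the threshold, 11 moved further and 23 changed sign. Of these 23, 7 are tissue differences given below and 16 are log2 changes near 0 in brain that passed no threshold. Ala-4-1 in Phe11 brain was at -7.51e-05 with a pseudocount of 10, at -0.057 in batch 1 alone, and from -0.062 to 0.087 with a library left out. In Phe21 brain it was at 0.011 with TMM scaling and from -0.091 to 0.13 with a library left out, and in Phe31 brain from -0.11 to 0.12. Asp-1-7 then lay from -0.070 to 0.19 in Phe21 brain and from -0.24 to 0.024 in Phe31 brain, and Phe-1-1 in Phe31 brain from -0.023 to 0.050. Phe-1-1 in Phe11 brain kept its call under all 20 alternatives, with log2 changes from -1.74 to -1.34. Its adjusted p by limma ranged from 9.21e-26 without wild-type replicate 1 to 0.00344 with no filter. For Asp-1-7 in Phe11 brain the log2 change and adjusted p were -0.26 and 0.222 with no filter, -0.24 and 0.0581 with TMM scaling, -0.22 and 0.0943 with equal totals, -0.26 and 0.156 with no trend, -0.27 and 0.127 with DESeq2, and -0.15 and 0.586 in batch 1 alone, and from -0.37 to -0.19 with a library left out, with the call lost in 6 of 8. The Phe11 brain call of Asp-1-7 was kept with edgeR, at -0.28 and 0.0280, and in batch 2 alone, at -0.36 and 0.0236. In Phe21 liver Asp-1-7 was at 0.52 with TMM scaling, 0.32 with edgeR and 0.33 with DESeq2. With a library left out it lay from 0.40 to 0.49 there, Ala-4-1 from 0.39 to 0.58 and Phe-1-1 from 0.34 to 0.60. With a pseudocount of 10, which shrinks low counts by construction, the log2 changes of Phe-1-1, Ala-4-1 and Asp-1-7 were -1.28, -1.43 and -1.67 in Phe11 liver and -0.70, -0.62 and -0.83 in the livers labelled Phe31. Phe-1-1 was at -3.02 with edgeR in Phe11 liver and at -4.68 with a pseudocount of 0.1 in the livers labelled Phe31. The cause of the other changes was not tested. Loci under a filter gave no value with it.

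The wild-type brain minus liver difference of Phe-1-1 was 0.188 percentage points in batch 1 alone. For Ala-4-1 it was -0.0165 in batch 1 alone, -0.0278 without livers a, b and c, and -0.0154 without them and with livers 1 and 22 averaged. For Asp-1-7 it was -0.122, -0.110 and -0.105. With a library left out it ranged from 0.216 to 0.246, from 0.0210 to 0.0613 and from 0.00889 to 0.0880 for Phe-1-1, Ala-4-1 and Asp-1-7. Averaging livers 1 and 22, with or without livers a, b and c, was chosen after seeing the data and is the form given in the report. Brain and liver share some sample numbers, and the correlations of same-numbered libraries were -0.007 and -0.032 in wild type, 0.013 in Phe11 and 0.135, 0.141 and 0.150 in Phe21. The numbers were not taken to pair the wild types, the only libraries compared between tissues. With replicate number as a block over replicates 1 and 3 the differences were 0.199, 0.00382 and -0.158. Within a tissue the knockout and wild-type libraries share no sample numbers. Depth limits the liver values, for which Phe-1-1 had 15 reads in all Phe11 livers and 2 in all livers labelled Phe31.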
